A study of Mus musculus with 8 samples.

Results

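Slitrk1 to Slitrk5 and Lrrtm1 to Lrrtm4 are 9 genes for leucine-rich repeat proteins of the synaptic membrane. They were found by symbol in a table of 56576 genes, and all 9 were among the 31171 genes with enough signal to be tested. Their RNA was measured on ribosomes pulled down from cortical synaptosomes, a preparation of pinched-off synaptic endings, of mice at postnatal day 15. The 4 control libraries came from Lhx6-Cre;ErbB4+/+;Rpl22HA/HA mice and the 4 mutant libraries from Lhx6-Cre;ErbB4F/F;Rpl22HA/HA mice. Mice of both genotypes therefore carry Lhx6-Cre and an HA-tagged Rpl22, a protein of the large ribosomal subunit, and differ in the floxed alleles of the neuregulin receptor gene Erbb4. Lhx6-Cre recombines in interneurons that arise from the preoptic area and the medial ganglionic eminence (MGE), most of which become PV+ or SST+ cells, so a library mixes both classes. Library numbers are those of the labels, 1, 3, 4 and 5 for controls and 2, 3, 4 and 5 for mutants.

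Slitrk proteins sit in the membrane of the receiving neuron, and their extracellular leucine-rich repeats bind LAR-type receptor tyrosine phosphatases on the presynaptic axon. Slitrk3, through Ptprd, is known for organizing inhibitory synapses, whereas the other Slitrk proteins have mostly been linked to excitatory ones. Lrrtm proteins are postsynaptic organizers of excitatory synapses that bind neurexins, and Lrrtm4 also binds the heparan sulfate chains of glypicans. Several Lrrtm proteins help to hold AMPA receptors at the synapse.

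The genes of each family are related, and long stretches of identical sequence would let reads of one be counted for another. The longest exact match between coding sequences was 11 to 20 bases for the 10 Slitrk pairs, 11 to 19 bases for the 6 Lrrtm pairs and 10 to 13 bases for the 20 pairs across families. Over whole transcripts the longest match was 22 bases for Slitrk pairs, 19 for Lrrtm pairs and 21 across families. The sequences below, from GENCODE M21 on mm10, show the longest coding match within each family. They also show the match between Lrrtm1 and Lrrtm3, whose values differed most clearly between genotypes. Each is written 5′ to 3′ on the gene's strand, with the shared run in capitals and 15 bases of coding sequence on either side.
Slitrk1, chr14:108912610-108912659, minus strand: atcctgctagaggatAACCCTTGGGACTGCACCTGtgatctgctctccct
Slitrk4, chrX:64271435-64271484, minus strand: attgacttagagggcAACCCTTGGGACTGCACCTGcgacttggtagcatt
Lrrtm3, chr10:64088500-64088548, minus strand: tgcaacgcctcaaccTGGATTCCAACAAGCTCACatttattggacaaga
Lrrtm4, chr6:80022445-80022493, plus strand: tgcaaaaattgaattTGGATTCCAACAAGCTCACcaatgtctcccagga
Lrrtm1, chr6:77243763-77243807, plus strand: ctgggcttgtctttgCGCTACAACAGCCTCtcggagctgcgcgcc
Lrrtm3, chr10:64089153-64089197, minus strand: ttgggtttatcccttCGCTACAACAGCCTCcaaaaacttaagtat

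Libraries held 51010687 to 80226984 reads on genes, and values are given as normalized counts, reads divided by 1 size factor per library. Erbb4, the targeted gene, had 1640, 5377, 4306 and 3034 normalized counts in control libraries 1, 3, 4 and 5, and 1711, 1648, 1233 and 1048 in mutant libraries 2, 3, 4 and 5. It was called lower in mutants (log2 fold change -1.25, SE 0.34, limma p = 0.0041, two-sided exact permutation p = 0.086), although control library 1 lay below mutant libraries 2 and 3. Pairs of libraries of 1 genotype differed unequally over all genes. The chi-square per gene was 27.4 for mutant libraries 4 and 5 and 47.4 for mutant libraries 2 and 3. It was 115 for control libraries 4 and 5, 193 for control libraries 1 and 3, and 251 to 401 for the other pairs. All 11 fixed markers of MGE-derived interneurons were measured and had a log2 fold change below 0, with 2 called lower. Markers of excitatory neurons were also present, with a summed signal of 116254 to 154158 in controls and 111649 to 138287 in mutants. A gene is called here when its unadjusted p does not exceed 0.05 and its values differ by 1.5-fold or more.

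Every one of the 9 genes had a log2 fold change below 0 in Erbb4 mutants, except for Slitrk1 and Slitrk5 when libraries were scaled by total reads. No gene passed the thresholds in the main limma fit, which has no replicate block and no library weights. Log2 fold changes of mutant over control ran from -0.56 for Slitrk4 to -0.13 for Slitrk5, with a median of -0.37, against a median of 0.06 over all genes tested. Over the whole table, 7.15% of genes were called, 3.17% lower and 3.98% higher in mutants, and 46.6% had a log2 fold change below 0. Among the 8824 genes with a mean of at least 1000 normalized counts in 1 genotype, a class that holds 8 of the 9 genes, 53.7% were below 0 and 6.36% were called lower. With limma, 0 of the 9 were called and 1, Lrrtm3, had an unadjusted p under 0.05, where 8.33% of all genes did, 3.77% in the lower direction and 8.32% of the genes with a mean of at least 1000 in that direction. EdgeR and DESeq2 on the recovered reads also called 0 of the 9, with 1 and 2 unadjusted p-values under 0.05. Limma with the replicate block called 3 of the 9 and limma with library weights called 3, in each case with 6 unadjusted p-values under 0.05. Of the 31171 genes tested, the block called 3164, 1719 of them lower, and library weights called 3630, 1633 of them lower. The share of all genes with an unadjusted p under 0.05 is not given for those fits. The limma p-values adjusted over all genes ran from 0.58 to 0.86, and 0.0449% of all genes were lower at an adjusted p under 0.05. Fewer captured interneurons and less RNA per interneuron cannot be told apart in these bulk libraries.

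Scaling libraries by total reads in place of size factors raised the median of all genes from 0.06 to 0.24 and the median of the 9 genes from -0.37 to -0.19. Under that scaling 7 of the 9 remained below 0, and Slitrk1 and Slitrk5 had log2 fold changes of 0.037 and 0.058. Lrrtm4 was near 0 there, at -0.013, with means of 20.3 CPM, reads on a common library total, in controls and 20.4 CPM in mutants. Control library 3 had much of the high signal, and without it the median of the 9 genes was -0.11, whereas without control library 1 it was -0.42 and Slitrk2, Lrrtm1 and Lrrtm3 had an unadjusted limma p under 0.05. The study's methods call the libraries biological replicates, and all p-values measure the spread between them.

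**Figure D1:**
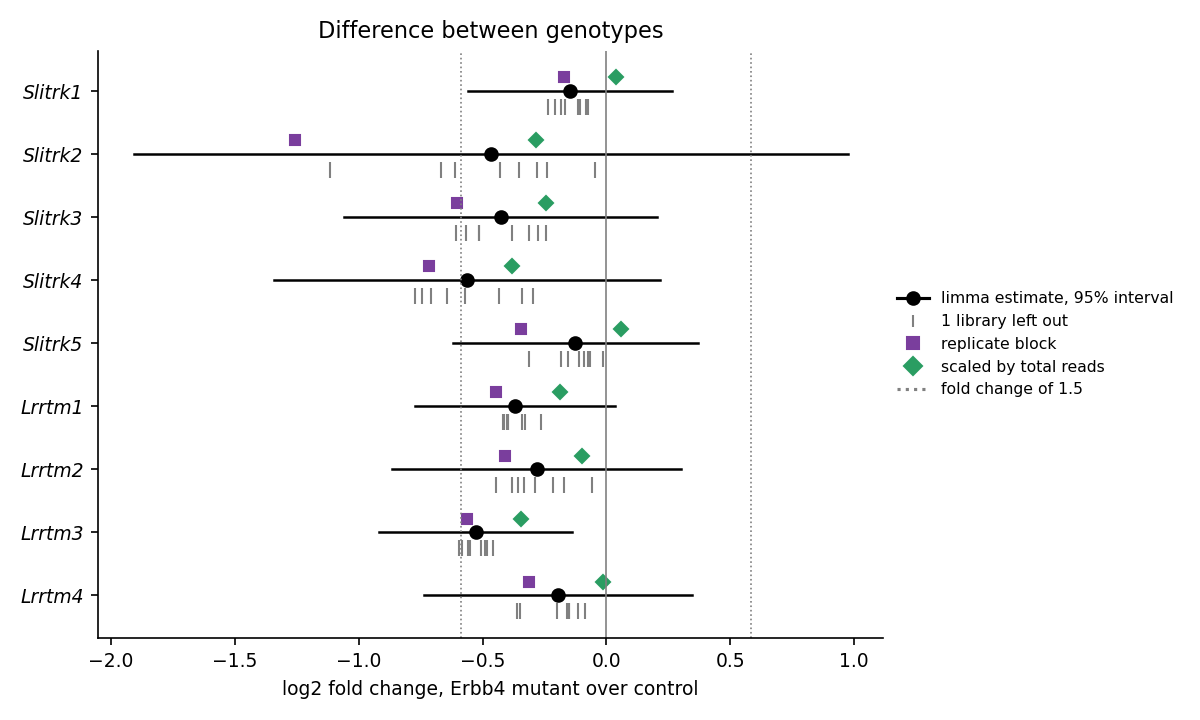
Log2 fold change of mutant over control (horizontal axis, log2 scale) for each of the 9 genes, with the 95% confidence interval of the limma fit over 8 libraries. All 9 points lie below 0, from -0.56 to -0.13 (Slitrk1 and Slitrk5 are above 0 under scaling by total reads), and the interval of Lrrtm3 alone stays below 0.

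Lrrtm3, whose product binds presynaptic neurexins, showed the clearest separation between genotypes. It had 9073, 10039, 7567 and 8293 normalized counts in control libraries 1, 3, 4 and 5, against 6779, 6417, 5567 and 5466 in mutant libraries 2, 3, 4 and 5. Each mutant library lay below each control library. The means were 8743 ± 1061 in controls and 6057 ± 643 in mutants (SD, n = 4), a log2 fold change of -0.53 (SE 0.18, 95% interval -0.92 to -0.14, limma p = 0.012, adjusted limma p = 0.58, exact permutation p = 0.029). The fold, 1.44, fell short of the fold asked of a call, and without control library 4 the gene was called, at -0.59. The two-sided permutation p is the smallest that 4 libraries against 4 allow, in a family of 9 such tests. Under scaling by total reads, Lrrtm3 had 114 to 131 CPM in controls and 90.3 to 106 in mutants, still without overlap, with a log2 fold change of -0.34, a limma p of 0.062 and an exact permutation p of 0.029.

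Lrrtm1, a neurexin ligand of excitatory synapses, was the other gene whose groups did not overlap. Its controls held 11512, 15880, 12062 and 11891 normalized counts and its mutants 10397, 10780, 9274 and 9039. The mutant libraries were close to each other, and control library 3 stood well above the other controls. Means were 12836 ± 2043 and 9872 ± 847 (SD, n = 4), with a log2 fold change of -0.37 (SE 0.18, 95% interval -0.77 to 0.03, limma p = 0.068, exact permutation p = 0.029). Without control library 3 the log2 fold change was -0.26, and after scaling by total reads the groups overlapped, at 160 to 193 CPM in controls and 150 to 166 in mutants. So 2 of the 9 genes had every mutant library below every control library, which held for 2.17% of all genes and for 3.91% of those with a mean of at least 1000.

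Lrrtm2, which binds neurexins in the same way, did not separate by genotype. Control libraries 1, 3, 4 and 5 had 7609, 13443, 8361 and 5987 normalized counts and mutant libraries 2, 3, 4 and 5 had 8158, 8569, 6051 and 5552. All but control library 3 fell within one range shared by the genotypes. The means of 8850 ± 3218 and 7083 ± 1502 (SD, n = 4) gave a log2 fold change of -0.28 (SE 0.27, 95% interval -0.86 to 0.30), with a limma p of 0.31 and an exact permutation p of 0.46. Leaving out 1 library moved it between -0.45 (without control library 5) and -0.058 (without control library 3).

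Lrrtm4, the glypican-binding member, was the scarcest of its family. Its controls held 1572, 1797, 1415 and 1035 normalized counts, and its mutants 1751, 1133, 1053 and 1148. Mutant library 2 lay near the highest control and control library 5 below every mutant. Means were 1455 ± 321 and 1271 ± 323 (SD, n = 4), and the log2 fold change was -0.20 (SE 0.25, 95% interval -0.74 to 0.34, limma p = 0.44, exact permutation p = 0.43). It was -0.36 without mutant library 2, -0.35 without control library 5, -0.12 without mutant library 4 and -0.086 without control library 3.

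**Figure D2:**
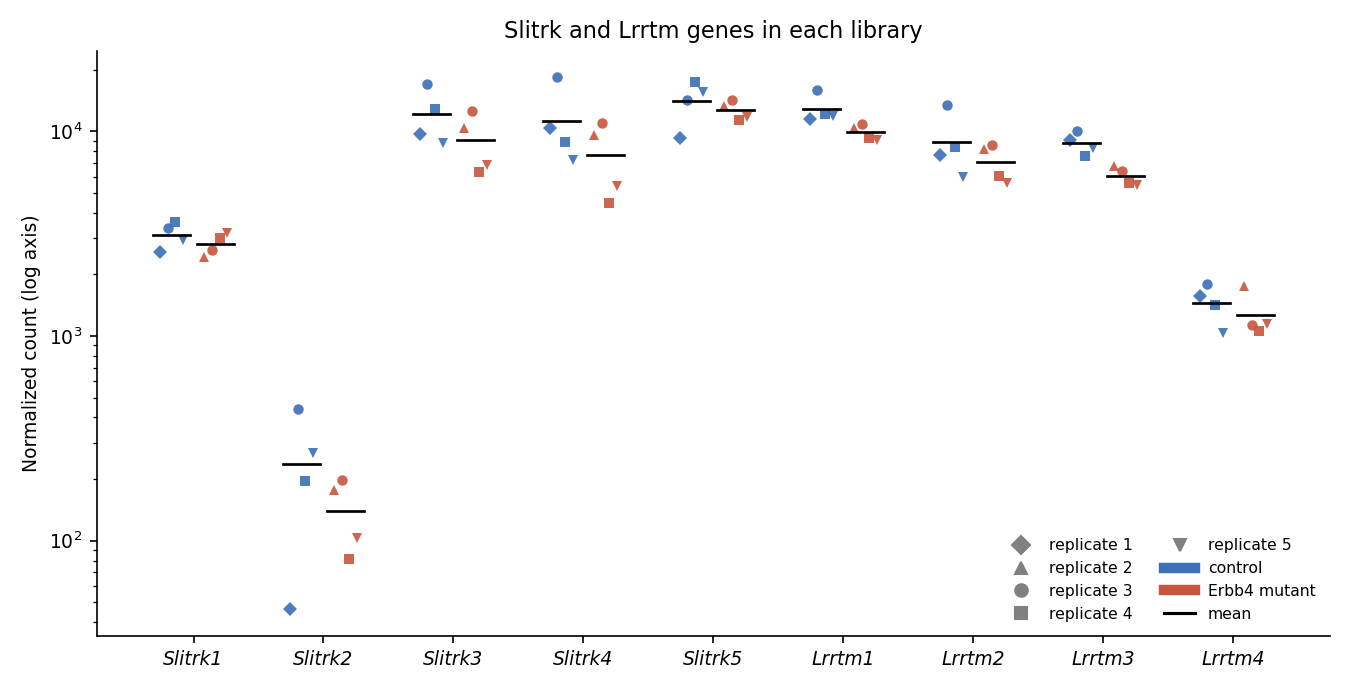
Normalized counts (vertical axis) of the 9 genes in each control and mutant library, with the mean of each genotype, n = 4. Lrrtm1 and Lrrtm3 are the genes whose groups do not overlap, and control library 3 is the highest control for 7 of the 9 genes.

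Among the Slitrk genes, the values of Slitrk3 and Slitrk4 differed more between genotypes than those of Slitrk1 and Slitrk5, with wide spread inside each genotype. Slitrk3, the inhibitory-synapse organizer, had 9701, 17066, 12838 and 8721 normalized counts in controls and 10365, 12604, 6348 and 6835 in mutants. Mutant libraries 4 and 5 lay below every control, and mutant libraries 2 and 3 lay among them. The means were 12082 ± 3758 and 9038 ± 2976 (SD, n = 4), a log2 fold change of -0.43 (SE 0.29, 95% interval -1.06 to 0.20, limma p = 0.16, exact permutation p = 0.26). Without control library 3 it was -0.24, and without mutant library 4 it was -0.28.

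Slitrk4, a phosphatase-binding organizer encoded on chromosome X, was highest in the same control and mutant libraries as Slitrk3. Its controls had 10326, 18315, 8899 and 7206 normalized counts and its mutants 9603, 10987, 4456 and 5410. Mutant libraries 4 and 5 were again below all controls. Means of 11186 ± 4921 and 7614 ± 3171 (SD, n = 4) gave the lowest log2 fold change of the 9, -0.56 (SE 0.35, 95% interval -1.34 to 0.22, limma p = 0.14, exact permutation p = 0.26). The same libraries moved it to -0.30 and -0.34 when left out.

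Slitrk2, also on chromosome X, was sparse, with as few as 34 reads in a library. Control libraries 1, 3, 4 and 5 had 46.4, 437, 196 and 268 normalized counts and mutant libraries 2, 3, 4 and 5 had 176, 198, 81.0 and 103. Control library 1 was the lowest of all 8 and control library 3 the highest. The means were 237 ± 162 and 140 ± 56.5 (SD, n = 4), with a log2 fold change of -0.47 (SE 0.65, 95% interval -1.91 to 0.97, limma p = 0.49, exact permutation p = 0.57). Without control library 1 the gene was called lower, at -1.12, and its log2 fold change was -0.045 without control library 3, -0.28 without control library 5 and -0.24 without mutant library 4.

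With the replicate number as a block, which pairs libraries 3, 4 and 5, limma called Slitrk2, Slitrk3 and Slitrk4 lower, at log2 fold changes of -1.26, -0.60 and -0.72. Their unadjusted p-values in that fit were 0.013, 0.013 and 0.0040, and 6 of the 9 genes had an unadjusted p under 0.05. Over the whole table the same fit called 1719 genes lower, in place of 988, and the share of all genes with such a p is not given. The lowest adjusted p of the 9 genes with the block was 0.14.

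Slitrk5, highest of its family per kilobase in the control mean, held 9258, 14201, 17307 and 15538 normalized counts in controls and 13336, 14135, 11333 and 11682 in mutants. The mutant values all lay inside the control range. Means were 14076 ± 3455 and 12621 ± 1335 (SD, n = 4), and the log2 fold change was -0.13 (SE 0.22, 95% interval -0.62 to 0.37, limma p = 0.59, exact permutation p = 0.57). This value was -0.31 without control library 1, -0.014 without control library 4, -0.066 without control library 5 and -0.076 without mutant library 4.

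Slitrk1, known for effects on neurite growth, likewise overlapped between genotypes. Its controls had 2564, 3350, 3583 and 2957 normalized counts and its mutants 2432, 2614, 3006 and 3168. The log2 fold change from 3114 ± 448 to 2805 ± 341 (SD, n = 4) was -0.15 (SE 0.19, 95% interval -0.56 to 0.26, limma p = 0.45, exact permutation p = 0.34), and it was -0.24 without control library 1, -0.076 without control library 4 and -0.081 without mutant library 2. The intervals of Slitrk1 and Slitrk5 include decreases and increases.

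Levels were compared between genes only after division by the length of each gene's merged GENCODE exons. Reads were counted on constitutive regions of the study's Fast DB genes, so this is not the counted length. For Lrrtm1 the deposited row spans 77242477 to 77259915, while the GENCODE gene spans 77242689 to 77257791, with 2545 bases of merged exon. The order between genes may therefore depend on the annotation. Lrrtm1 was first in all 8 libraries, at 5044 ± 803 normalized counts per kilobase in controls and 3879 ± 333 in mutants (SD, n = 4). Slitrk2 was last in all 8, at 29.3 ± 20.1 and 17.3 ± 6.99. Between them came Slitrk5 (2675 ± 656 in controls), Slitrk3 (2492 ± 775) and Lrrtm3 (2244 ± 272), whose neighbours in that order overlapped and changed places between libraries. Lrrtm2 (1560 ± 567) and Slitrk4 (1279 ± 563) followed. The control ranges of these 2 overlapped too, although Lrrtm2 was higher than Slitrk4 in each control library. Slitrk1 (581 ± 83.6) and Lrrtm4 (237 ± 52.2) did not overlap their neighbours in controls, while in mutant library 4 Slitrk1 (561) lay above Slitrk4 (510). The order of the control means was the same when the length of the main transcript was used, which comes from the same GENCODE annotation.

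**Figure D3:**
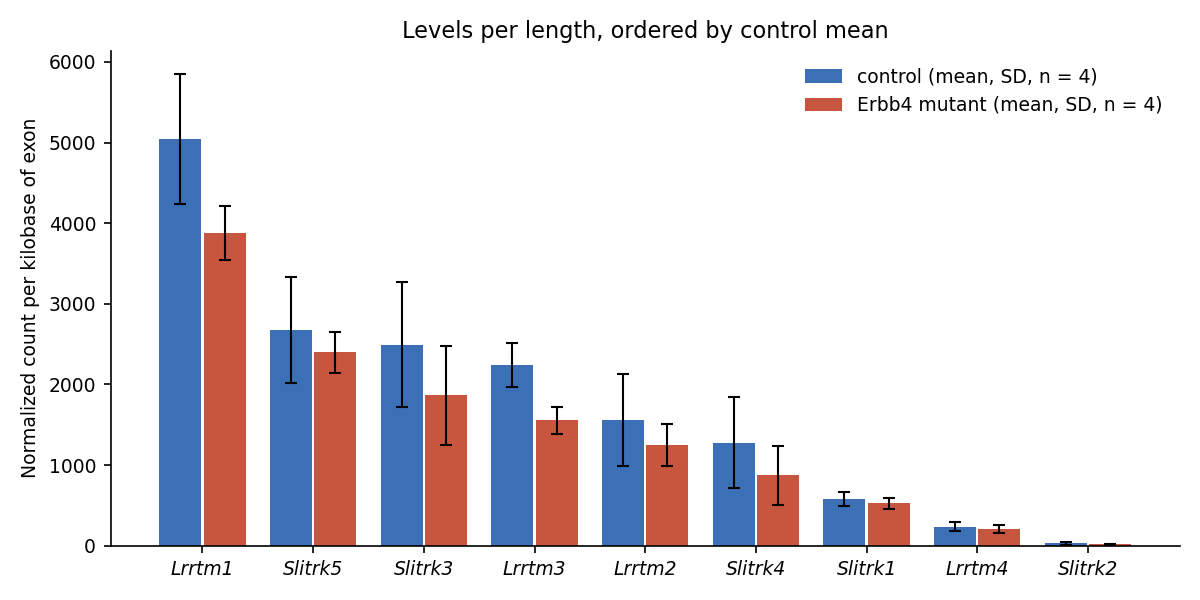
Normalized counts per kilobase of merged exon for the 9 genes in controls and mutants, ordered by the control mean. Lrrtm1 is highest and Slitrk2 lowest in all 8 libraries, and Slitrk5, Slitrk3 and Lrrtm3 overlap.

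The make-up of each family was then expressed as each gene's percentage of its family's summed normalized count per kilobase. These percentages rest on the same GENCODE lengths. Lrrtm1 made up 55.7% ± 2.12 of the Lrrtm signal in controls and 56.4% ± 1.82 in mutants (SD, n = 4). Lrrtm3 made up 24.9% ± 2.50 and 22.6% ± 0.593, with a two-sided exact permutation p of 0.17. The Slitrk signal was led by Slitrk5, at 38.3% ± 8.53 in controls and 42.9% ± 4.36 in mutants, and by Slitrk3, at 34.96% ± 4.26 and 32.2% ± 3.96. None of the 9 shares compared passed a test of the difference, with exact permutation p-values adjusted over the 9 shares of 0.55 to 0.66. These shares carry wide spread in the Slitrk family, where control library 3 had 30.0% Slitrk5 and control library 5 had 47.9%.

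Inside each genotype the 9 genes varied together in part. Control library 3 was the highest control for 7 of them and mutant library 3 the highest mutant for 6, while mutant library 4 was the lowest mutant for 5. After the genotype means were removed, Pearson's r over the 8 libraries ran from -0.58 to 0.93 across the 36 pairs, with a median of 0.53. The 4 pairs above 0.9 were Lrrtm1 with Lrrtm2, Slitrk3 with Slitrk4, and Lrrtm2 with each of Slitrk3 and Slitrk4. Slitrk1 with Lrrtm3 was the lowest, at -0.58, and Slitrk2 with Slitrk5 reached 0.82. The points share a library, its depth and its mix of cells, so these correlations are a description only.

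**Figure D4:**
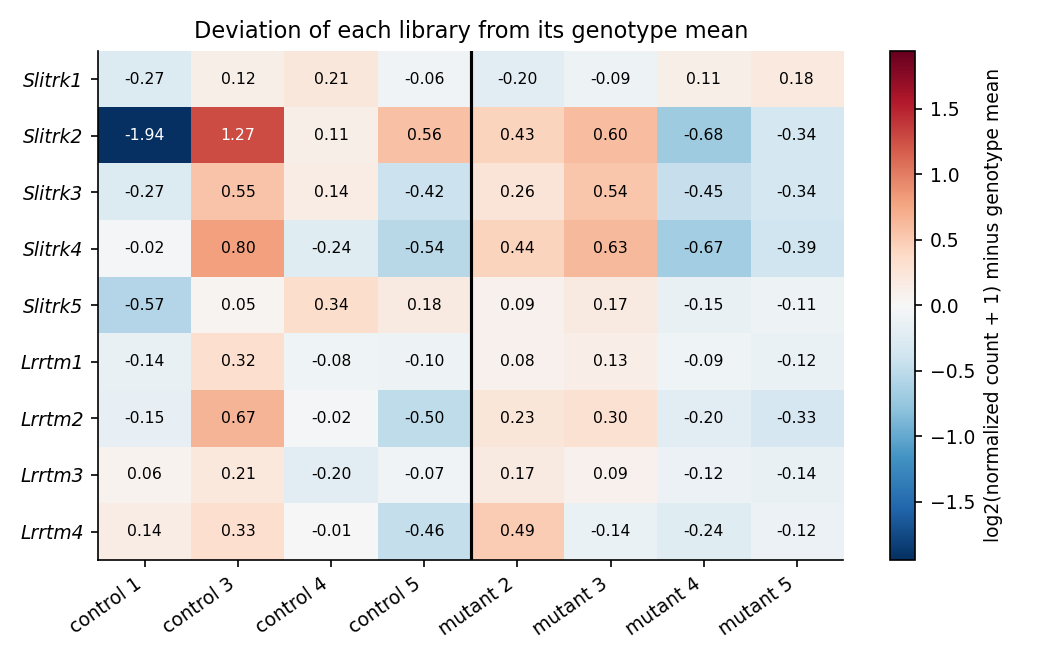
Deviation of each library from its genotype mean (colour, log2 scale) for the 9 genes and 8 libraries. Control library 3 is above its genotype mean by a median of 0.33, and mutant library 4 is below by a median of 0.20; Slitrk2 has the widest deviations.

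The genes whose values ran most like the mean standardized log2 value of the 9 were ranked by Pearson's r over the 8 libraries, among 18111 genes with a mean of at least 100 in both genotypes. They were GSMG0028675, a gene with no symbol in the table (0.984), Nat8l, the enzyme that makes N-acetylaspartate (0.982), Tmem132a (0.982), Spcs3, a signal peptidase subunit (0.979), and Cds1, a phospholipid enzyme (0.978). Nat8l had 13949 ± 6505 normalized counts in controls and 8423 ± 1993 in mutants (SD, n = 4). Likeness here includes the difference between genotypes.

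On mm10, as the table gives them, the genes lie at chr14:108908800-108914239 (Slitrk1), chrX:66649318-66661402 (Slitrk2), chr3:73047269-73057803 (Slitrk3), chrX:64264884-64277345 (Slitrk4) and chr14:111675115-111683144 (Slitrk5). Lrrtm1 lies at chr6:77242477-77259915, Lrrtm3 at chr10:63928497-64090276 and Lrrtm4 at chr6:80018877-80810143. In the GENCODE annotation, each Slitrk coding sequence lies in 1 exon, and coding lengths run from 2088 bases for Slitrk1 to 2940 bases for Slitrk3. Lrrtm1, Lrrtm2 and Lrrtm3 each lie inside an alpha-catenin gene on the opposite strand, in Ctnna2, Ctnna1 and Ctnna3. Lrrtm1 and Lrrtm3 share no exon bases with their hosts, and Lrrtm2 shares 95. The alpha-catenins link cadherins to actin, and 0 of these 3 genes were called by limma. Ctnna1 had 17835 ± 2327 normalized counts in controls and 24623 ± 7108 in mutants (log2 fold change 0.43, SE 0.24), Ctnna2 had 8241 ± 649 and 7190 ± 638 (-0.20, SE 0.17), and Ctnna3 had 352 ± 239 and 430 ± 187 (0.42, SE 0.53).

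The ratio of each nested gene to its host overlapped between genotypes. Lrrtm1 over Ctnna2 was 1.57 ± 0.352 in controls and 1.38 ± 0.114 in mutants (SD, n = 4, two-sided exact permutation p = 0.40). Lrrtm2 over Ctnna1 was 0.517 ± 0.264 and 0.320 ± 0.154 (exact p = 0.26), and Lrrtm3 over Ctnna3 was 37.2 ± 27.3 and 17.7 ± 12.0 (exact p = 0.29). The third ratio is coarse because Ctnna3 is scarce.

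Lrrtm4 spans a long stretch of chromosome 6, and its start overlaps an antisense gene by 1543 exon bases. The table row over that antisense gene had 1062 ± 293 normalized counts in controls and 998 ± 249 in mutants (SD, n = 4, log2 fold change -0.08, SE 0.27). Whether the counting used strand is not given in the sources used here, so reads of Lrrtm4 and of its antisense partner may not be told apart. The same holds for the 95 exon bases that Lrrtm2 shares with Ctnna1.

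Unnamed rows of the table inside the introns of Lrrtm3 were looked at after the values of Lrrtm3 were known. The 10 rows summed to 3921, 3179, 3529 and 3466 normalized counts in controls and 5196, 3731, 2804 and 2360 in mutants. Their means, 3524 ± 306 and 3523 ± 1253 (SD, n = 4), were nearly equal, with a two-sided exact permutation p of 0.86. Of the 10 rows, 7 had a log2 fold change below 0, beside 46.6% of all genes. Limma called 1 row higher, beside 3.98% of all genes. These rows also lie inside Ctnna3, so their sum is not particular to Lrrtm3. The ratio of Lrrtm3 to this sum was 2.50 ± 0.449 in controls and 1.83 ± 0.428 in mutants (exact p = 0.086). In the introns of Lrrtm4, 9 rows summed to 2651 ± 173 and 2554 ± 856 (exact p = 0.66).

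The presynaptic receptors of these proteins were next described from lists of known partners. Of the 3 LAR-type phosphatases that bind Slitrk proteins, 0 were called by limma, with log2 fold changes from -0.16 for Ptprd to 0.24 for Ptprs and a median of -0.14, which was 0.043 under scaling by total reads. The 3 neurexins, which bind Lrrtm proteins, were all below 0, from -0.58 for Nrxn3 to -0.10 for Nrxn2, 2 of them also under scaling by total reads. Of these neurexins 0 were called, against 1 with the replicate block and 1 with library weights. Those fits called 3164 and 3630 of the 31171 genes tested, and the main fit 2229. Nrxn3 had 39365 ± 13395 normalized counts in controls and 26965 ± 11248 in mutants (SD, n = 4, limma p = 0.12, exact permutation p = 0.20).

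Of 10 heparan sulfate proteoglycans, 5 were below 0 (4 under scaling by total reads) and 1 was called, Sdc1, a syndecan. Sdc1 had 315, 270, 216 and 176 normalized counts in controls and 144, 121, 111 and 181 in mutants, a log2 fold change of -0.80 (SE 0.36, limma p = 0.049, adjusted limma p = 0.58, exact permutation p = 0.057). Mutant library 5 lay just above control library 5, so the groups met. The list held no call in 6 of 8 fits that left out a library, in the fit with the replicate block and under scaling by total reads. Its median was -0.03 and its highest value was 0.48, for Sdc3.

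Of 11 postsynaptic AMPA receptor subunits and scaffolds, 8 were below 0 (4 under scaling by total reads) and 0 were called, from -0.75 for Gria4, the AMPA subunit of fast interneurons (limma p = 0.051, exact permutation p = 0.11), to 0.43 for Dlg1. With the replicate block 3 of them were called, and 2 with library weights or without control library 5. Those fits also called more genes over the whole table, 3164, 3630 and 3767, against 2229 of 31171 in the main fit. DESeq2, limma with a pseudocount of 10 and limma without mutant library 3 each called 1 of them, beside 2834, 2381 and 2514 genes over the whole table. Of 4 scaffolds of inhibitory synapses, 0 were called, from -0.14 for Gphn, which encodes gephyrin, to 0.30 for Iqsec3.

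Other organizers with leucine-rich repeats leaned the same way as the Slitrk and Lrrtm genes. Of 24 measured, 19 were below 0 (13 under scaling by total reads), 3 had an unadjusted limma p under 0.05, and the median was -0.28, beside 46.6% below 0 and 8.33% with such a p among all genes (53.7% below 0 at a mean of at least 1000). The 1 gene called was Lingo4, at 293, 129, 184 and 109 normalized counts in controls and 39.3, 148, 61.5 and 37.7 in mutants (log2 fold change -1.44, SE 0.57, limma p = 0.029, exact permutation p = 0.086). It was scarce, and mutant library 3 lay among the controls. The list held 0 calls without control library 4, mutant library 4 or mutant library 5. It held 4 without control library 5 or with library weights, and 3 without mutant library 3 or with a pseudocount of 10. It held 2 with the replicate block, with quantile normalization, without control library 1 and without control library 3. Over the whole table, 3767 genes were called without control library 5 and 3630 with library weights. The block called 3164 and the main fit 2229.

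Lrfn4, an adhesion protein that binds the scaffold Dlg4, had 6418, 7386, 6863 and 7726 normalized counts in controls and 5174, 4139, 5245 and 6053 in mutants. Its groups did not overlap (log2 fold change -0.47, SE 0.18, limma p = 0.024, exact permutation p = 0.029). Flrt1, a latrophilin ligand, was the other gene of the list without overlap, at 1852 to 2105 normalized counts in mutants and 2155 to 3968 in controls (-0.49, SE 0.21, limma p = 0.042, exact permutation p = 0.029). Both were named after their values were seen, and a lack of overlap in this direction held for 2.17% of all genes and 3.91% of those with a mean of at least 1000. Slitrk6, the remaining Slitrk gene, was scarce, at 0, 150, 122 and 183 normalized counts in controls and 12.0, 0, 39.0 and 0 in mutants. Its log2 fold change was the lowest of the list, at -3.17 (SE 1.84, limma p = 0.11, exact permutation p = 0.23). Amigo2 was highest, at 0.27.

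**Figure D5:**
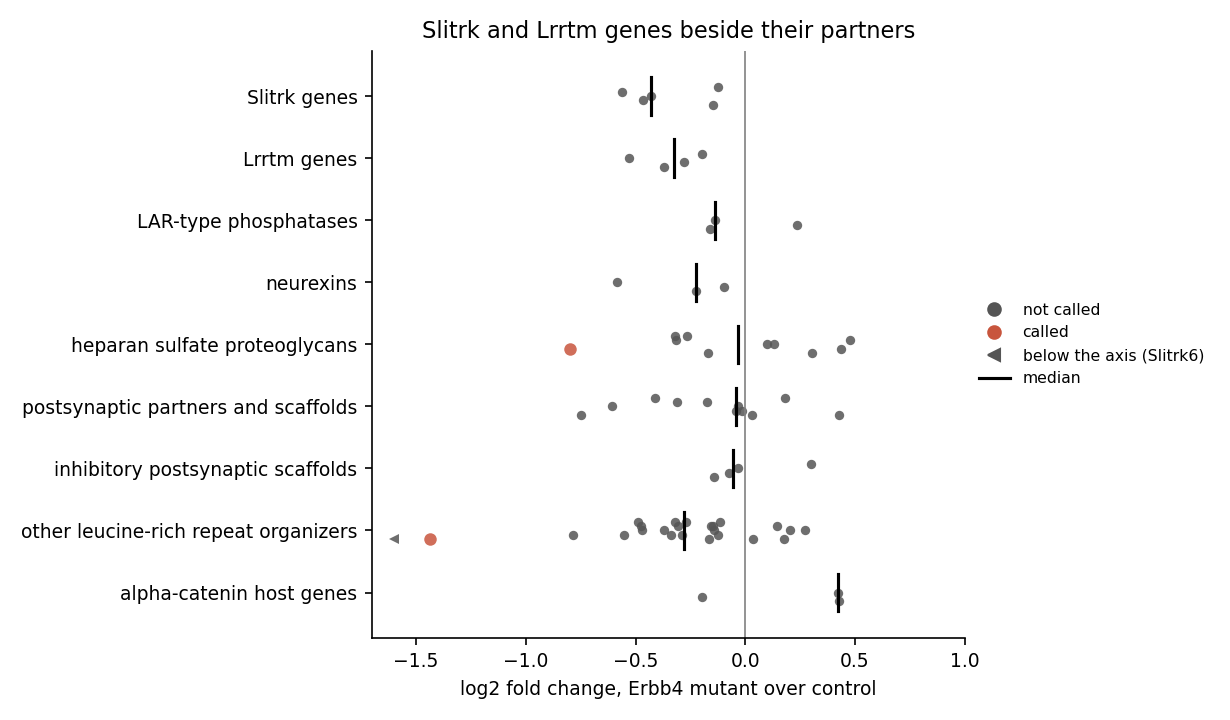
Log2 fold change of mutant over control (horizontal axis) for each gene of the 9 and of the partner lists, with the median of each list. The 9 genes and the 24 other organizers lie mostly below 0, at medians of -0.37 and -0.28 (-0.19 and -0.10 under scaling by total reads), and the median over all genes tested is 0.06.

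Markers of the tagged cells had medians below 0, as the 9 genes did. The 11 markers of MGE-derived interneurons had a median log2 fold change of -0.69 (-0.51 under scaling by total reads, with 10 of 11 below 0), with Gad1 and Gad2, the enzymes of GABA synthesis, called lower, and their summed signal was 38238 to 130836 in controls and 21214 to 64303 in mutants. The 7 PV+ markers had a median of -1.10 (-0.92), with Pvalb, Kcnc1, Syt2 and Lgi2 called lower, and sums of 25050 to 111865 and 12687 to 39656. The 6 SST+ markers had a median of -1.26 (-1.07), with 5 of 6 below 0, Nos1 at 0.10 and Chodl called lower. Lhx6, the transcription factor whose promoter drives Cre, had 1223 ± 445 and 743 ± 220 normalized counts (SD, n = 4, log2 fold change -0.69, SE 0.32, limma p = 0.055, exact permutation p = 0.11).

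Other cell types also differed beside the 9 genes. All 7 oligodendrocyte markers were below 0 (6 under scaling by total reads), with Mog and Mag called lower and a median of -0.61, and their sums were 228721 to 670581 in controls and 201416 to 285782 in mutants. Among 6 endothelial markers, Flt1 and Kdr were called higher and 2 were below 0 (1 under scaling by total reads), the lowest at -0.50, with a median of 0.37. No gene was called among the 7 astrocyte, 6 microglial, 4 oligodendrocyte precursor or 9 CGE-derived interneuron markers by limma, and their medians were -0.11, -0.37, -0.03 and -0.48, of which the astrocyte and precursor medians were above 0 under scaling by total reads, at 0.073 and 0.15. The part of these cell types in the values of the Slitrk and Lrrtm genes was not tested.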

How the data were processed

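The authors sequenced RNA from HA-tagged ribosomes of cortical synaptosomes in 8 libraries and deposited normalized counts, a signal obtained by aligning reads with STAR 2.4.0 to mm10, counting those on constitutive regions of Fast DB 2021_1 genes and dividing by 1 DESeq2 size factor per library. Reads were recovered with the lowest positive value of a library taken as 1 read. All came out whole within 0.001 of a read, a tolerance that widened in proportion to the count at high counts. For control library 4 and mutant library 5, whose size factors lie near 1, the recovery could not be told from the deposited values. Precision is limited by the spread between libraries more than by depth.

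Genes with a mean of at least 10 in 1 genotype were tested with limma 3.58.1 (trend, R 4.3.3) on log2(normalized count + 1), without covariate, and Benjamini-Hochberg adjustment over all genes. Fold changes are on that scale. Calls used the study's thresholds, p not above 0.05 before adjustment and 1.5-fold. EdgeR 4.0.16, DESeq2 1.42.0, a replicate block, library weights, other normalizations, filters and pseudocounts, and leaving out each library were alternatives. Scaling by total reads was added after the data were seen. The procedure was tested on simulated data.

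Same-numbered libraries deviated together, with r of 0.24 to 0.28 over 19137 genes with a mean of at least 100 and 0.08 to 0.10 over all genes tested. Some differently numbered pairs were as close. Control 3 with mutant 2 reached 0.276, control 5 with mutant 4 0.228 and control 4 with mutant 5 0.227. Control 3 was negative with mutants 4 and 5 (-0.32 and -0.34), and controls 4 and 5 with mutants 2 and 3 (-0.19 to -0.21). Control 1 was near 0 with every mutant (-0.059 to 0.062). So the shared number is not singled out, and no label states what it shares. The main fit has no term for a grouping of libraries. Blocked values are therefore given beside the main ones. They rest on libraries 3, 4 and 5 of each genotype, because control 1 and mutant 2 have no partner. The study's supplement mentions 2 sequencing batches. No source used here assigns a library to one, so no within-batch value is given.

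The 9 genes and the lists were chosen with earlier results of these data known. Named genes are the 9, Erbb4, Rpl22 and Lhx6, the alpha-catenin hosts, the called, lowest and highest gene of each partner list, the 5 genes most like the 9 and the called markers. Lrfn4, Flrt1 and Nos1 were added after their values were seen. Rpl22 had 828 ± 371 normalized counts in controls and 572 ± 129 in mutants (SD, n = 4). Calls among the excitatory neuron markers are not reported here.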

Additional observations from a re-analysis of the deposited data

Results flagged for a closer look

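In groups of 4 libraries, 30 groups of values were examined for a library far from the others, and 2 were found where chance gives about 1.5. Lrrtm1 in control library 3 had 15880 normalized counts, against 11512 to 12062 in the other controls, a gap of 0.874 of the group's range. Lrrtm4 in mutant library 2 had 1751 normalized counts, against 1053 to 1148 in the other mutants, a gap of 0.864 of the range. Neither cause was tested.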

How the results depend on the processing

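The medians of the 9 genes, of the Slitrk genes and of the Lrrtm genes stayed below 0 under every alternative, from -0.44 to -0.11 for the 9. All 9 genes were below 0 in every fit but the one scaled by total reads, where Slitrk1 was 0.037 and Slitrk5 was 0.058. With the replicate block 3 of the 9 were called, and 1719 genes were called lower. Library weights also called 3, Slitrk2, Slitrk3 and Slitrk4, with 3630 genes called and 1633 lower. DESeq2 called 1573 genes lower and scaling by total reads 417. An adjusted p under 0.05 left 14 genes, all 14 lower and none of the 9. Leaving out 1 library gave 0 to 1 of the 9 called, 1194 to 3767 genes called and 515 to 1977 lower. The median of the 9 was -0.11 without control library 3 and -0.24 without mutant library 4.

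Some partner lists had medians near 0 that changed sign. The heparan sulfate proteoglycans were 0.020 with quantile normalization, 0.071 with library weights, 0.15 with total reads and -0.30 to 0.032 without 1 library. Under total reads the LAR-type phosphatases were 0.043, the postsynaptic partners 0.14 and the inhibitory scaffolds 0.13. Without 1 library the last 2 ran from -0.28 to 0.015 and from -0.13 to 0.13. The postsynaptic partners were -0.30 with library weights and -0.35 with the replicate block, where the 9 genes were -0.40 and -0.44. The cause was not tested. Apart from Slitrk2 at 34 reads, depth did not limit the 9 genes.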
